A study of Homo sapiens with 12 samples.

Results

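Oxidative stress genes controlled by the transcription factor NRF2 were followed in breast cancer cells depleted of a long non-coding RNA. The set held 9 genes of the 63677 in each count table: NFE2L2, which encodes NRF2, and 8 listed targets, NQO1, TXNRD1, SRXN1, GCLC, GCLM, HMOX1, OSGIN1 and ME1. The genes were named by symbol for their known link to NRF2, and all 9 genes had enough counts to be tested.

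NRF2 is made constantly and, in resting cells, is bound by KEAP1 and sent for degradation. Oxidants and electrophiles modify KEAP1, NRF2 escapes and enters the nucleus, and as a heterodimer with a small MAF protein it binds the antioxidant response element of its targets. Those targets supply glutathione, keep thioredoxin and peroxiredoxins reduced, reduce quinones, degrade heme and make NADPH, and many tumors keep the program active. Because NRF2 is regulated mainly as a protein, its mRNA level does not measure its activity.

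RNA-seq was performed on MDA-MB-468, SUM149PT and HCC38 cells, each an established line from a basal-like breast tumor. In the knock-down (KD) groups the cells received LNA1 and LNA2 together against the lncRNA RP11-19E11.1 (LINC01956), and in the LNA NS groups a non-targeting LNA. LNAs are short antisense oligonucleotides with locked sugars that lead RNase H to cut their target RNA. Each line and treatment had 2 libraries, 12 in all, from cells transfected at 50 nM, given new medium after 6 h and collected at 24 h. All groups therefore went through lipid transfection, and no untransfected cells were analysed here. KD and LNA NS cells differed in the LNAs they received as well as in the lncRNA, so effects of these cannot be told apart here. Each line grew in its own medium (MDA-MB-468 in DMEM/F12 with serum, SUM149PT in DMEM/F12 with less serum, insulin and hydrocortisone, HCC38 in RPMI with serum), so line and medium cannot be told apart. No label tells if both libraries of a condition stem from different cultures, and the p-values therefore measure the spread between these libraries, which may be technical.

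Gene counts per library ran from 32187835 to 56191152. The targeted lncRNA (ENSG00000258910) had in MDA-MB-468 a sum of 2 counts with KD and 52 with LNA NS, 45 and 742 in SUM149PT, and 157 and 1405 in HCC38. The 4 pan-epithelial markers were at 1 CPM (counts scaled to library size, with TMM factors) or more in all groups, and immune markers summed to at most 0.326 CPM. The 6 basal markers summed to 4746 to 5148 CPM in KD and 7888 to 8611 CPM in LNA NS cells of MDA-MB-468, to 3421 to 3541 and 4288 to 4404 CPM in SUM149PT, and to 185 to 222 and 201 to 248 CPM in HCC38. These sums rest on few of the markers. EGFR alone averaged 2800 CPM in KD and 5556 CPM in LNA NS cells of MDA-MB-468, and 149 and 159 CPM in HCC38. TP63 averaged under 1 CPM in MDA-MB-468 and SUM149PT, and KRT6A, KRT14 and KRT17 averaged 0.479 to 2.49 CPM in HCC38. The part of these marker levels in the results was not tested. No library stood apart from its group. In all that follows, a gene rose or fell when the quasi-likelihood test of edgeR gave it a p under 0.1, adjusted by Benjamini-Hochberg over 21325 genes, and fold changes are log2 of KD over LNA NS with the standard error of the fit.

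After knock-down the 9 genes did not move as a block, and each line had its own pattern. In MDA-MB-468, GCLM, NFE2L2 and OSGIN1 rose while HMOX1, ME1 and NQO1 fell. In SUM149PT, OSGIN1, NFE2L2, GCLM, TXNRD1 and GCLC rose and none fell. In HCC38, SRXN1, HMOX1 and OSGIN1 rose while ME1, TXNRD1 and NFE2L2 fell. OSGIN1 alone of the 9 rose in all 3 lines. GCLC did too once a trend with genomic span was removed, and with no filter on low counts no gene of the set did. No gene of the set changed by more than 2-fold in any line or on average. Of all genes, 20.2%, 10.6% and 9.36% did in MDA-MB-468, SUM149PT and HCC38 and 12.5% on average. The libraries are bulk RNA, so fewer cells of a kind and less RNA per cell cannot be told apart.

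Knock-down was a broad perturbation, which sets the background for these counts. In MDA-MB-468, 6 of the 9 genes changed (3 up, 3 down), against 50.6% of all genes tested (24.9% up, 25.7% down). SUM149PT had 5 (all up), against 38% of all genes (20% up, 18% down). HCC38 had 6 (3 up, 3 down), against 34% of all genes (15.5% up, 18.4% down). On average over the 3 lines, 4 rose (OSGIN1, SRXN1, GCLM and NFE2L2) and 1 fell (ME1), 5 in all, against 54.8% of all genes (28.4% up, 26.5% down). The median log2 fold change of the 9 genes was −0.06 for MDA-MB-468, 0.39 for SUM149PT, −0.09 for HCC38 and 0.11 on average, beside 0, 0.03, 0.01 and 0.04 for all genes. KD and LNA NS libraries did not overlap for 6 of the 9 genes in SUM149PT, 7 in HCC38 and 8 in MDA-MB-468, where this held for 63.1%, 61.5% and 69.8% of all genes. Of the 9 genes, fewer were called in MDA-MB-468 when any of its own libraries was left out, and the same held in HCC38. In SUM149PT fewer were called without its KD replicate 1 or its LNA NS replicate 2. Calls over all genes tested dropped too, in each of these fits, in the line that lost the library. With upper-quartile factors in place of TMM, MDA-MB-468 had 3 rises and 1 fall. With the trend of each library on genomic span removed, it had 6 rises and 2 falls, with a median of 0.26. Over all genes those fits called 11150 and 10776 of 21325 in MDA-MB-468.

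**Figure D1:**
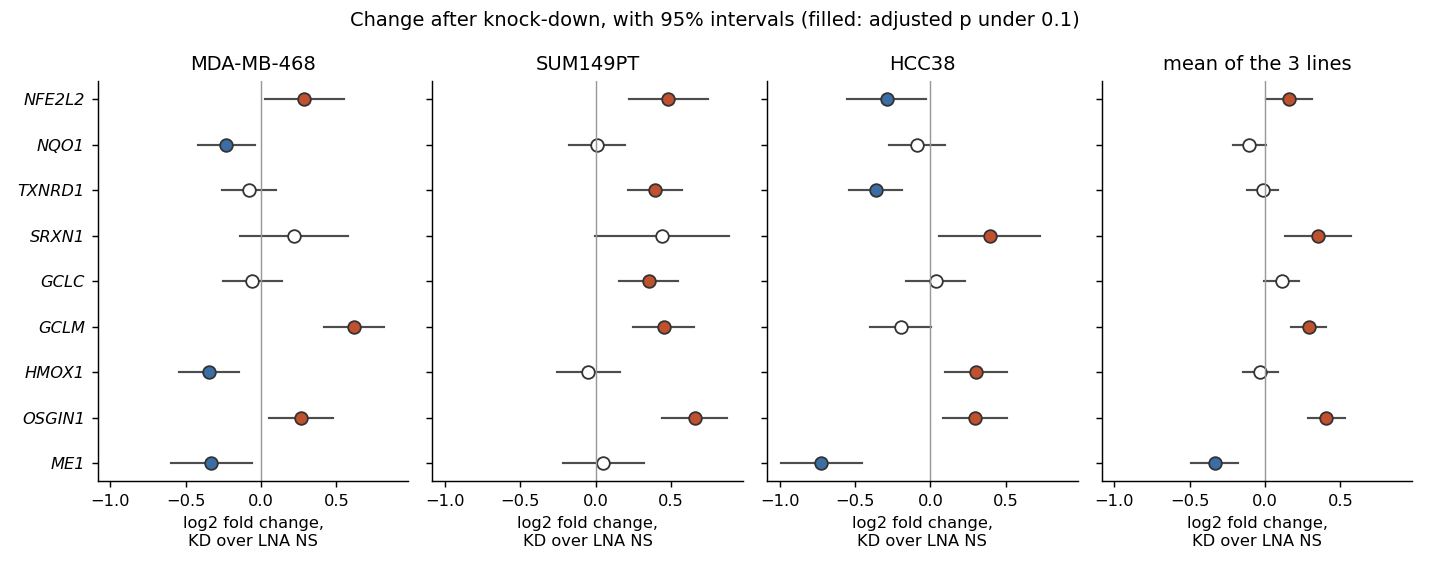
Log2 fold change (KD over LNA NS, points) with its 95% interval (lines) for NFE2L2 and 8 targets in each line and on average; filled points passed an adjusted p of 0.1, red up and blue down. OSGIN1 is the 1 gene filled on the right in all 3 lines, and NFE2L2, HMOX1 and TXNRD1 have filled points on opposite sides in different lines.

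The change after knock-down differed between the lines for 7 of the 9 genes by edgeR's F test of the differences (adjusted p under 0.1), against 32.4% of all genes. The exceptions were NQO1 (adjusted p = 0.339) and SRXN1 (adjusted p = 0.768). Just 2 of the 9, SRXN1 and OSGIN1, had a fold change of 1 sign in all lines, where 51.2% of all genes did. With upper-quartile factors GCLC did as well, and with DESeq2 NQO1. Once the span trend was removed, NFE2L2, GCLC and NQO1 all had 1 sign too. The share of all genes was not counted for those other fits. Conversely, NFE2L2, HMOX1 and TXNRD1 rose in a line and fell in another, 3 of the 9, where 3.72% of all genes did. That count was 1 (TXNRD1) without HCC38 KD replicate 2 or either HCC38 LNA NS replicate, and 1 (GCLM) with the span trend removed. It was 2 or 3 in the other fits tried. For OSGIN1 (adjusted p = 0.0855) and GCLC (adjusted p = 0.0644) the edgeR test of a difference between the lines depended on single libraries, as given with each gene.

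The antioxidant response element is the sequence through which NRF2 acts, and its matches upstream of the 9 genes are shown here for that reason. The strict form TGACTCAGC was searched on both strands in the 5000 bases upstream of the start of each MANE Select transcript. It occurred for 4 of the 9 genes, and in 6.48% of 18922 such windows of all genes. The looser form TGACNNNGC was searched in the last 250 bases only, where it occurred for 3 of the 9 genes and in 11.4% of all windows. TGACTCAGC holds TGACTCA, the letters bound by AP-1, and it is also one of the sequences that TGACNNNGC covers. The stretches are printed 5′ to 3′ from GRCh37, with the motif in capitals.
NQO1, chr16:69760900-69760928, minus strand, 455 to 447 bases upstream: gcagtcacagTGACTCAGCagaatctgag
HMOX1, chr22:35773139-35773167, minus strand, 3940 to 3932 bases upstream: gaggcactggTGACTCAGCaaaatctagc
GCLC, chr6:53413037-53413065, plus strand, 3156 to 3148 bases upstream: cgcctccccgTGACTCAGCgctttgtgcg
ME1, chr6:84140889-84140917, minus strand, 137 to 129 bases upstream: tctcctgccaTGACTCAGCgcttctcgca
GCLM, chr1:94375002-94375030, plus strand, 34 to 26 bases upstream: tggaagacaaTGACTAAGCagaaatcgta
TXNRD1, chr12:104609448-104609476, plus strand, 99 to 91 bases upstream: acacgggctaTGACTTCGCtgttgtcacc

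ME1 held the strict form within the 250-base window too. NFE2L2, SRXN1 and OSGIN1 had no match in these windows, which says only that these letters are not there. The 4 genes with the strict form did not share a direction after knock-down. On average ME1 fell, while NQO1, HMOX1 and GCLC did not pass the test.

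**Figure D2:**
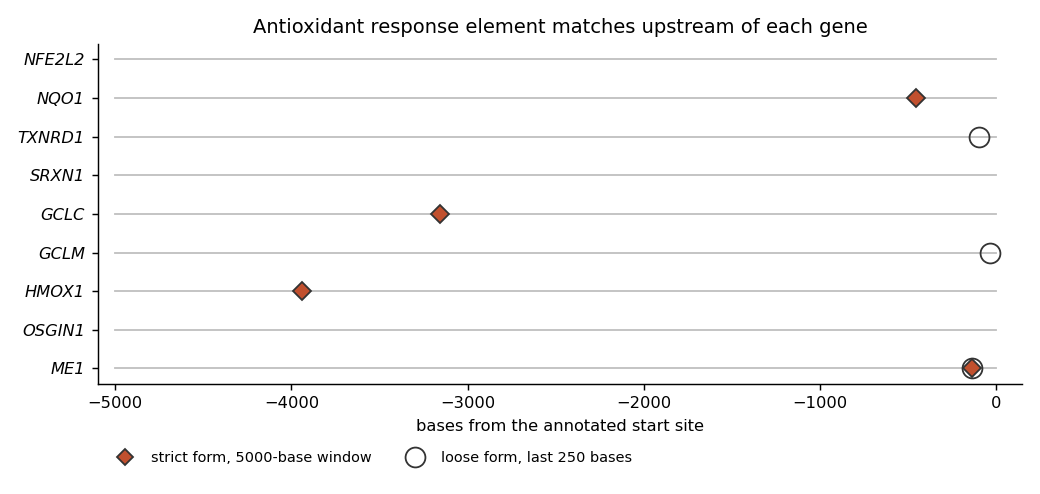
Position of each match to the strict form (red diamonds, 5000-base window) and the looser form (open circles, last 250 bases) upstream of the annotated start of each gene, in bases. The matches of GCLM, TXNRD1 and ME1 lie within 250 bases of the start, those of GCLC and HMOX1 far outside that window.

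NFE2L2 (ENSG00000116044, chromosome 2, 178083395 to 178257484, minus strand) encodes the factor itself. In MDA-MB-468 it was at 159.5 and 159 CPM in KD cells, against 143 and 118 CPM in LNA NS cells. SUM149PT had 160.1 and 127 CPM in KD cells, against 103 and 103 CPM in LNA NS cells. HCC38 had 91.8 and 76.7 CPM in KD cells, against 109 and 97.4 CPM in LNA NS cells. KD libraries were thus all higher than LNA NS libraries in MDA-MB-468 and SUM149PT and all lower in HCC38, without overlap. NFE2L2 had a log2 fold change of 0.29 ± 0.12 (SE) for MDA-MB-468 (edgeR adjusted p = 0.0702), 0.48 ± 0.12 for SUM149PT (adjusted p = 0.00722) and −0.29 ± 0.12 for HCC38 (adjusted p = 0.0958). The edgeR test of a difference between the lines gave an adjusted p of 0.0107, and this call held without each library in turn (adjusted p 0.00423 to 0.0612).

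The separate NFE2L2 calls were less firm than their difference. In MDA-MB-468 the rise was lost without KD replicate 1 (0.27, edgeR adjusted p = 0.196), KD replicate 2 (0.29, 0.181) or LNA NS replicate 2 (0.15, 0.501), and in SUM149PT without KD replicate 1 (0.30, 0.146). In HCC38 the fall lay at the threshold and passed in 3 of the 12 fits that left out a library. Among its own libraries it was lost without KD replicate 2 (−0.17, edgeR adjusted p = 0.5), LNA NS replicate 1 (−0.21, 0.406) or LNA NS replicate 2 (−0.37, 0.101), and without any library of MDA-MB-468 or either LNA NS library of SUM149PT it stayed at −0.29 with an adjusted p of 0.103 to 0.122. The fall also missed the threshold with other size factors, DESeq2 and only that line's libraries. The mean rise of 0.16 (edgeR adjusted p = 0.0761) passed in 4 of the 12 fits, those without KD replicate 2 or LNA NS replicate 1 of HCC38, KD replicate 2 of SUM149PT or LNA NS replicate 1 of MDA-MB-468. With the span trend removed NFE2L2 was at 0.81 in MDA-MB-468, 0.70 in SUM149PT, 0.09 in HCC38 and 0.53 on average (edgeR adjusted p = 4.16e-06). That trend used an annotated span of 174090 bases, of which the MANE Select transcript takes 34420.

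Factors that hold NRF2 back or share its element moved in both directions. KEAP1, the adaptor that presents NRF2 for degradation, was at 466 and 477 CPM in KD cells, against 310.1 and 336 CPM in LNA NS cells of MDA-MB-468. For SUM149PT the levels were 185 and 186 CPM in KD cells, against 131 and 131 CPM in LNA NS cells. For HCC38 the levels were 122 and 127 CPM in KD cells, against 109 and 108 CPM in LNA NS cells. KEAP1 was higher in every KD library of its line, and rose, with log2 fold changes of 0.54, 0.51 and 0.21 for MDA-MB-468, SUM149PT and HCC38 (edgeR adjusted p = 3.25e-05, 1.59e-04 and 0.0619). BACH1, a repressor that competes for the same element, rose in MDA-MB-468 (0.55 ± 0.15, edgeR adjusted p = 0.00600) and had values of 0.13 in SUM149PT and 0.29 in HCC38 that did not pass. Its mean was 0.32, or 1.11 with the trend with genomic span removed. Among other parts of the degradation machinery, BTRC fell on average (−0.39, edgeR adjusted p = 3.68e-04) and RBX1 too (−0.33, adjusted p = 0.0122). BTRC fell in MDA-MB-468 (−0.45) and HCC38 (−0.72), while 0.002 in SUM149PT did not pass. The lines differed for BTRC by the edgeR F test (adjusted p = 0.0242). RBX1 passed in no single line (−0.29, −0.37 and −0.33 in MDA-MB-468, SUM149PT and HCC38). CUL3, the ligase scaffold that KEAP1 recruits, was at 0.05 on average, which did not pass. It rose in SUM149PT (0.30, edgeR adjusted p = 0.0322), and −0.03 in MDA-MB-468 and −0.14 in HCC38 did not pass. The lines differed for CUL3 by the edgeR F test (adjusted p = 0.0700). BACH2, also on the regulator list and at a mean of only 0.498 CPM, was at −0.31 on average, which did not pass. Of the 3 small MAF partners, MAFF rose in each line (1.15, 1.09 and 0.97 in MDA-MB-468, SUM149PT and HCC38), at 111 and 137 CPM in KD against 54.2 and 58.1 CPM in LNA NS cells of MDA-MB-468. MAFG rose too, by 0.43 in SUM149PT, 0.42 in HCC38 and 1.04 in MDA-MB-468. MAFK fell in MDA-MB-468 (−0.36, edgeR adjusted p = 0.0704), while 0.04 in SUM149PT, 0.30 in HCC38 and −0.005 on average did not pass.

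**Figure D3:**
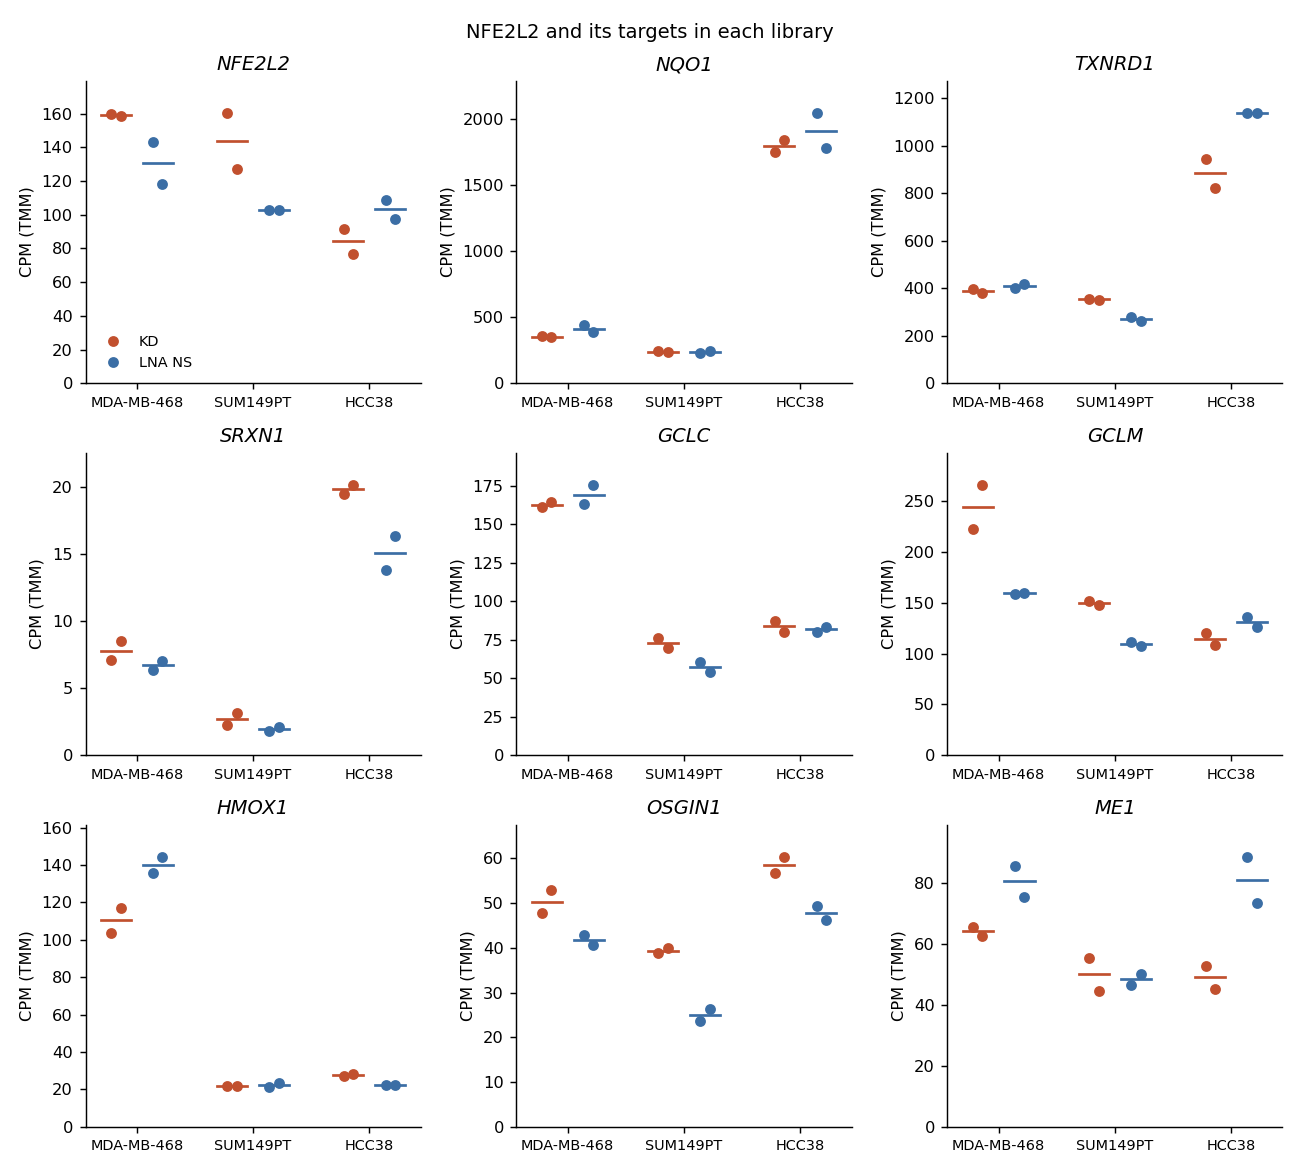
TMM-scaled CPM of NFE2L2 and 8 targets in each of the 12 libraries (points) with the group mean (bars), KD in red left of LNA NS in blue within each line; every axis starts at 0. KD points lie above LNA NS points for OSGIN1 and SRXN1 in all 3 lines, while NFE2L2, GCLM and TXNRD1 lie above in SUM149PT and below in HCC38.

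GCLC and GCLM encode the catalytic and the modifier subunit of glutamate-cysteine ligase, the enzyme that limits glutathione synthesis. GCLM (ENSG00000023909, chromosome 1, 94350755 to 94375012, minus strand) was at 223 and 266 CPM in KD cells, against 159 and 159.6 CPM in LNA NS cells of MDA-MB-468. In SUM149PT it was at 152 and 148 CPM in KD cells, against 111 and 108 CPM in LNA NS cells. In HCC38 it was at 119.8 and 108 CPM in KD cells, against 136 and 126 CPM in LNA NS cells. The groups did not overlap in any line, KD being higher in MDA-MB-468 and SUM149PT and lower in HCC38. GCLM rose by 0.62 ± 0.09 in MDA-MB-468 (edgeR adjusted p = 6.41e-05) and by 0.45 ± 0.10 in SUM149PT (adjusted p = 0.00191), and its log2 fold change in HCC38 was −0.20 ± 0.09 (adjusted p = 0.141). The lines differed by the edgeR F test (adjusted p = 0.00130), and these rises and this difference passed without each library in turn.

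GCLC (ENSG00000001084, chromosome 6, 53362139 to 53481768, minus strand) moved less than its partner. SUM149PT had 76.3 and 69.7 CPM in KD cells, against 60.3 and 54.2 CPM in LNA NS cells, without overlap. In MDA-MB-468 it was at 161 and 164 CPM in KD cells, against 163 and 175 CPM in LNA NS cells, and in HCC38 at 87.4 and 79.8 CPM in KD cells, against 79.9 and 83.4 CPM in LNA NS cells, with overlap in both lines. It rose in SUM149PT by 0.35 ± 0.09 (edgeR adjusted p = 0.00902), while −0.06 in MDA-MB-468 and 0.04 in HCC38 did not pass. The rise was lost without KD replicate 1 (0.28, edgeR adjusted p = 0.112) or LNA NS replicate 2 (0.27, 0.129) of SUM149PT. With the span trend removed GCLC rose in MDA-MB-468 (0.26, edgeR adjusted p = 0.0101), SUM149PT (0.46, 2.38e-04) and HCC38 (0.29, 0.00802), by 0.34 on average (7.18e-06), and the lines did not differ by the test (0.315). The fit took the annotated span of GCLC, 119630 bases, of which the MANE Select transcript takes 47761. The difference between the lines passed in 4 of the 12 fits that left out a library: it was lost without any MDA-MB-468 library, KD replicate 1 or LNA NS replicate 2 of SUM149PT, or replicate 2 of either HCC38 group (edgeR adjusted p 0.103 to 0.276).

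Cystine import feeds the same synthesis. SLC7A11, the light chain of the cystine-glutamate exchanger, was at 46.5 and 59 CPM in KD cells, against 13.9 and 13.5 CPM in LNA NS cells of MDA-MB-468. For SUM149PT the levels were 33.1 and 32.3 CPM in KD cells, against 26.5 and 21.3 CPM in LNA NS cells. HCC38 had 121 and 111 CPM in KD cells, against 110.6 and 107 CPM in LNA NS cells. The KD libraries were above the LNA NS libraries in each line. SLC7A11 rose by 1.95 ± 0.13 in MDA-MB-468 (edgeR adjusted p = 1.22e-08) and by 0.45 ± 0.12 in SUM149PT (adjusted p = 0.0117), with 0.10 ± 0.12 in HCC38 (adjusted p = 0.601), and the lines differed (adjusted p = 1.80e-05). SLC3A2, the heavy chain of the exchanger, rose by 1.44, 0.64 and 0.61 in MDA-MB-468, SUM149PT and HCC38.

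TXNRD1 and SRXN1 serve the thioredoxin branch. TXNRD1 (ENSG00000198431, chromosome 12, 104609557 to 104744085, plus strand), the cytosolic reductase that passes electrons from NADPH to thioredoxin, was at 396 and 381 CPM in KD cells, against 401 and 419.6 CPM in LNA NS cells of MDA-MB-468. In SUM149PT it was at 356 and 350.4 CPM in KD cells, against 277 and 260.1 CPM in LNA NS cells. For HCC38 the levels were 943 and 824 CPM in KD cells, against 1136 and 1136 CPM in LNA NS cells. No line had overlapping groups, and KD was higher in SUM149PT only. TXNRD1 rose in SUM149PT by 0.39 ± 0.08 (edgeR adjusted p = 0.00187) and in HCC38 its log2 fold change was −0.36 ± 0.08 (adjusted p = 0.00396), a fall, while −0.08 ± 0.08 in MDA-MB-468 did not pass. The lines differed by the edgeR F test (adjusted p = 0.00115), and these calls held without each library in turn. Once a trend with genomic span was removed, the fold change in HCC38 was −0.07 and no longer passed.

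SRXN1 (ENSG00000271303, chromosome 20, 627259 to 633844, minus strand), sulfiredoxin, restores peroxiredoxins that were oxidized past their normal cycle. It was the lowest of the 9 genes, at 7.06 and 8.5 CPM in KD cells, against 6.31 and 7.04 CPM in LNA NS cells of MDA-MB-468. SUM149PT had 2.25 and 3.12 CPM in KD cells, against 1.82 and 2.08 CPM in LNA NS cells. In HCC38 it was at 19.5 and 20.1 CPM in KD cells, against 13.8 and 16.4 CPM in LNA NS cells. KD was higher without overlap in each line. SRXN1 rose in HCC38 by 0.39 ± 0.16 (edgeR adjusted p = 0.0760) and on average by 0.35 ± 0.10 (adjusted p = 0.0100), with 0.22 ± 0.17 in MDA-MB-468 and 0.44 ± 0.21 in SUM149PT, which did not pass. The mean rise passed without each library in turn (0.22 with the span trend removed), but that in HCC38 was lost without KD replicate 1 (0.40, edgeR adjusted p = 0.194), KD replicate 2 (0.37, 0.237) or LNA NS replicate 1 (0.27, 0.391). Of its 2528 exonic bases, 2292 also belong in the annotation to another gene on the same strand. HTSeq's usual mode leaves reads in such shared stretches uncounted, so the level of SRXN1 may be understated.

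NQO1 and HMOX1, the classic reporters of the program, did not rise together in any line. NQO1 (ENSG00000181019, chromosome 16, 69740899 to 69760571, minus strand), a quinone reductase, was at 355 and 350 CPM in KD cells, against 439 and 388 CPM in LNA NS cells of MDA-MB-468. For SUM149PT the levels were 243 and 238 CPM in KD cells, against 231 and 247 CPM in LNA NS cells. HCC38 had 1755 and 1843 CPM in KD cells, against 2045 and 1786 CPM in LNA NS cells. The groups were apart in MDA-MB-468 and overlapped in the other lines. NQO1 had a log2 fold change of −0.23 ± 0.09 in MDA-MB-468 (edgeR adjusted p = 0.0444), a fall, and of 0.01 ± 0.09 in SUM149PT and −0.09 ± 0.09 in HCC38, which did not pass. The 95% intervals of these last values, −0.18 to 0.20 in SUM149PT and −0.28 to 0.10 in HCC38, leave out a change of 2-fold either way. The fall in MDA-MB-468 was lost without KD replicate 2 (−0.22, edgeR adjusted p = 0.164) or LNA NS replicate 1 (−0.15, 0.294), and with upper-quartile factors.

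HMOX1 (ENSG00000100292, chromosome 22, 35776354 to 35790207, plus strand) encodes heme oxygenase, which cuts heme to biliverdin, iron and carbon monoxide. In MDA-MB-468 it was at 104 and 117 CPM in KD cells, against 136 and 144 CPM in LNA NS cells. In SUM149PT it was at 21.8 and 21.7 CPM in KD cells, against 21.6 and 23.5 CPM in LNA NS cells. For HCC38 the levels were 27.2 and 28.4 CPM in KD cells, against 22.6 and 22.5 CPM in LNA NS cells. KD was lower in MDA-MB-468 and higher in HCC38, each without overlap, and the groups overlapped in SUM149PT. HMOX1 had a log2 fold change of −0.34 ± 0.09 for MDA-MB-468, a fall (edgeR adjusted p = 0.00650), 0.30 ± 0.10 in HCC38, a rise (adjusted p = 0.0292), and −0.05 ± 0.10 in SUM149PT (adjusted p = 0.766). The lines differed (adjusted p = 0.00808), and that difference and the fall passed without each library in turn. The rise in HCC38 was lost without its KD replicate 2 (0.27), LNA NS replicate 1 (0.30) or LNA NS replicate 2 (0.30). It was also lost with no filter on low counts and with the span trend removed. In the fit with the span trend removed, HMOX1 fell on average (−0.15, edgeR adjusted p = 0.0223).

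OSGIN1 (ENSG00000140961, chromosome 16, 83964916 to 83999937, plus strand), a growth inhibitor named for its induction by oxidative stress, was the 1 gene of the set called in every line. In MDA-MB-468 it was at 47.7 and 52.9 CPM in KD cells, against 42.9 and 40.7 CPM in LNA NS cells. SUM149PT had 38.8 and 39.9 CPM in KD cells, against 23.5 and 26.4 CPM in LNA NS cells. In HCC38 it was at 56.8 and 60.3 CPM in KD cells, against 49.2 and 46.1 CPM in LNA NS cells. KD was higher without overlap in each line. OSGIN1 rose by 0.66 ± 0.10 in SUM149PT (edgeR adjusted p = 1.53e-04), by 0.27 ± 0.10 in MDA-MB-468 (adjusted p = 0.0396) and by 0.30 ± 0.10 in HCC38 (adjusted p = 0.0364). Of all genes tested, 15.3% were called with 1 sign in all 3 lines. In the fit with no filter on low counts OSGIN1 rose in SUM149PT, but its rises in MDA-MB-468 and HCC38 did not pass.

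The mean rise of OSGIN1, 0.41 ± 0.06 (edgeR adjusted p = 2.22e-05), was the largest of the 9, though not with the span trend removed (0.37, against 0.53 for NFE2L2), and passed without each library in turn. In MDA-MB-468 the rise was lost without KD replicate 2 (0.19, edgeR adjusted p = 0.262) or LNA NS replicate 2 (0.22, 0.21), and in HCC38 without KD replicate 2 (0.25, 0.198) or LNA NS replicate 2 (0.24, 0.195). The difference between the lines passed in 3 of the 12 such fits, those without KD replicate 2 of MDA-MB-468, LNA NS replicate 2 of SUM149PT or LNA NS replicate 2 of HCC38, and had an adjusted p of 0.115 to 0.316 in the other 9 edgeR fits.

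ME1 (ENSG00000065833, chromosome 6, 83920121 to 84140770, minus strand), the cytosolic malic enzyme that makes NADPH, was the 1 gene of the set to fall on average. In MDA-MB-468 it was at 65.6 and 62.7 CPM in KD cells, against 85.7 and 75.5 CPM in LNA NS cells. For SUM149PT the levels were 55.6 and 44.6 CPM in KD cells, against 46.6 and 50.3 CPM in LNA NS cells. HCC38 had 52.9 and 45.3 CPM in KD cells, against 88.6 and 73.6 CPM in LNA NS cells. KD was lower without overlap in MDA-MB-468 and HCC38, and overlapped LNA NS in SUM149PT. ME1 fell in HCC38 (log2 fold change −0.72 ± 0.13, edgeR adjusted p = 4.87e-04) and MDA-MB-468 (−0.33 ± 0.13, adjusted p = 0.0436), and was at 0.05 ± 0.13 for SUM149PT (adjusted p = 0.824). The lines differed (adjusted p = 0.0152), and the mean was −0.33 ± 0.07 (adjusted p = 0.00116). In MDA-MB-468 the fall was lost without KD replicate 2 (−0.30, edgeR adjusted p = 0.191) or LNA NS replicate 1 (−0.25, 0.267).

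Gene length moved with these values. ME1 spans 220650 bases and TXNRD1 134529, the longest MANE Select transcripts of the set. Over the 3282 tested genes with a span above 100 kb, 48.7% fell and 13.9% rose on average, with a median log2 fold change of −0.31, and the median was −0.48 for MDA-MB-468, −0.34 for HCC38 and −0.11 for SUM149PT. Over the 5002 genes of 10 to 30 kb the mean contrast had a median of 0.13. With the trend of each library on span removed, the change of ME1 was 0.34 in MDA-MB-468 (edgeR adjusted p = 0.0335), 0.35 in SUM149PT (adjusted p = 0.0408), −0.26 in HCC38, which did not pass, and 0.14 on average (adjusted p = 0.108). The falls of ME1 in MDA-MB-468 and on average thus did not keep their sign, and the cause was not tested.

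The genes also differed between the lines without knock-down. In LNA NS cells, all 9 genes were higher in MDA-MB-468 than in SUM149PT, where 35.3% of all genes were higher and 33.2% lower (68.5% in all). MDA-MB-468 and HCC38 differed in 7 (4 higher and 3 lower in MDA-MB-468), where 71.4% of all genes differed (33.7% higher, 37.7% lower). SUM149PT was lower than HCC38 in 7 and higher in none, where 69.6% of all genes differed (38% lower, 31.6% higher). More than 2-fold differences numbered 3, 5 and 3 in these comparisons, against 40.7%, 43.6% and 40.1% of all genes. The 3 comparisons share their LNA NS groups.

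NQO1, TXNRD1 and SRXN1 were at their highest in HCC38. NQO1 was at 1916 ± 183 CPM in LNA NS cells of HCC38 (SD, n = 2), 414 ± 36.0 in MDA-MB-468 and 239 ± 11.5 in SUM149PT, a ratio of 8.01 between the ends. SRXN1 had a ratio of 7.71 and TXNRD1 of 4.23 in the same order of lines, and each neighboring pair differed by the test. HMOX1, GCLC and GCLM were instead highest in MDA-MB-468. HMOX1 was there at 140.1 ± 5.94 CPM in LNA NS cells, against 22.5 ± 1.39 CPM in SUM149PT and 22.5 ± 0.0798 CPM in HCC38, which did not differ (95% interval of the log2 difference −0.21 to 0.21). GCLC had a ratio of 2.96 and GCLM of 1.45 between MDA-MB-468 and SUM149PT, with HCC38 between them, and each neighboring pair differed. GCLM in SUM149PT against HCC38 (−0.26 on the log2 scale, edgeR adjusted p = 0.0265) was not called without SUM149PT LNA NS replicate 2 (−0.23, 0.128) or HCC38 LNA NS replicate 1 (−0.19, 0.191).

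NFE2L2 itself varied least, by 1.27 times from the highest line to the lowest. It was at 130.4 ± 17.6 CPM in LNA NS cells of MDA-MB-468, 103 ± 0.355 CPM in SUM149PT and 103 ± 8.09 CPM in HCC38. SUM149PT and HCC38 did not differ (interval −0.27 to 0.26). The higher level in MDA-MB-468 was lost without its LNA NS replicate 1 (0.21 over SUM149PT and 0.22 over HCC38, edgeR adjusted p = 0.261 and 0.229), and over HCC38 also without HCC38 LNA NS replicate 2 (0.28, 0.137). OSGIN1 was at 41.8 ± 1.57 CPM in MDA-MB-468, 24.9 ± 1.99 CPM in SUM149PT and 47.7 ± 2.22 CPM in HCC38, and ME1 at 80.6 ± 7.21, 48.5 ± 2.60 and 81.1 ± 10.6 CPM. For both genes SUM149PT was the lowest, and MDA-MB-468 and HCC38 did not differ by the test (intervals −0.40 to 0.02 for OSGIN1 and −0.27 to 0.26 for ME1).

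**Figure D4:**
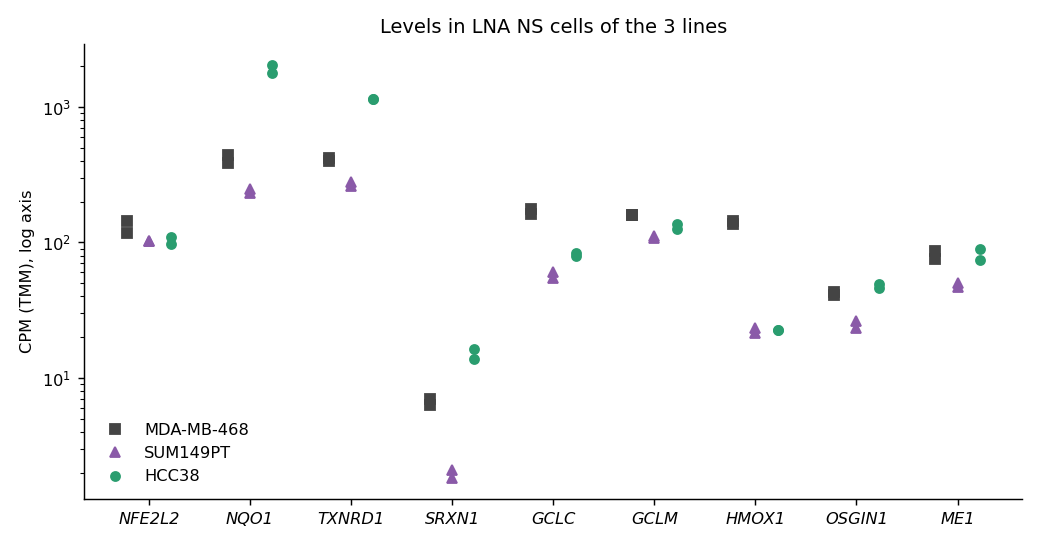
TMM-scaled CPM (log axis) of NFE2L2 and 8 targets in the LNA NS libraries, 2 points per line (squares MDA-MB-468, triangles SUM149PT, circles HCC38). SUM149PT lies lowest or level with the lowest for every gene, HCC38 is highest for NQO1, TXNRD1 and SRXN1, and MDA-MB-468 for HMOX1, GCLC and GCLM.

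Per kilobase of the MANE Select transcript, NQO1 was the most abundant of the genes in LNA NS cells of every line, with 759.9 CPM per kb in HCC38, 164 in MDA-MB-468 and 94.8 in SUM149PT. TXNRD1 followed with 294, 106 and 69.6 CPM per kb in the same lines. The gene at the bottom was HMOX1 in HCC38 (14.5 CPM per kb), but OSGIN1 in MDA-MB-468 (21.8) and SUM149PT (12.98), where HMOX1 was at 90.2 and 14.5 CPM per kb. SRXN1 was left out of this ranking because of its shared exons.

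The wider redox program was taken from 7 lists of textbook members besides the 9 genes, with 124 entries, of which 121 were tested. On average over the lines 31 rose and 54 fell, with a median log2 fold change of −0.11, where 28.4% of all genes rose and 26.5% fell. With upper-quartile factors the split was 42 and 42, and these factors moved the median of all genes by 0.11. By line, 27 rose and 50 fell in MDA-MB-468, 30 and 39 in SUM149PT, and 17 and 39 in HCC38, where 24.9% and 25.7%, 20% and 18%, and 15.5% and 18.4% of all genes rose and fell. With upper-quartile factors these were 37 and 41, 33 and 32, and 29 and 24, so that the excess of falls in SUM149PT and HCC38 turned into an excess of rises. Changes of more than 2-fold on average numbered 13 (4 up, 9 down).

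**Figure D5:**
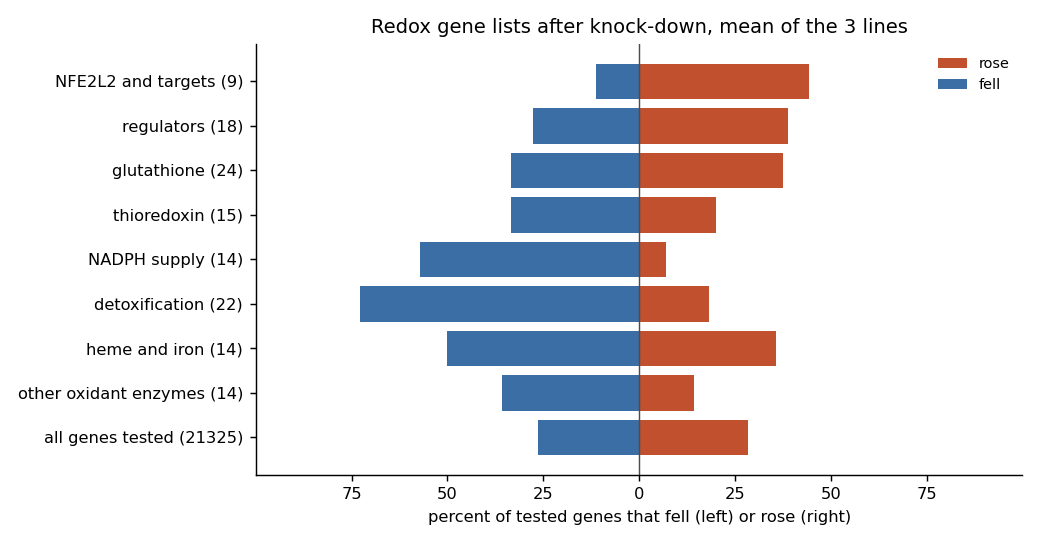
Percent of the tested genes of each list that rose (red, right) or fell (blue, left) on average over the 3 lines at an adjusted p under 0.1; the number of genes tested is in parentheses. The detoxification list has 16 falls and 4 rises among 22 genes, while all genes tested split 28.4% up and 26.5% down.

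Detoxification and export had the largest share of falls. Of 22 genes 16 fell, 4 rose and 2 did not pass, with a median log2 fold change of −0.43. ABCC1, which exports glutathione conjugates, was at 17.8 and 13.6 CPM in KD cells, against 52.1 and 60.5 CPM in LNA NS cells of MDA-MB-468, and its mean log2 fold change of −1.56 ± 0.08 was a fall (edgeR adjusted p = 1.61e-10). ABCC4, another exporter, fell by 1.201, or by 0.61 with the span trend removed, and the aldo-keto reductases AKR1C1 and AKR1C2 fell by 0.76 and 0.69. AKR1C1 and AKR1C2 are nearly identical in sequence, so the counting may have split reads between them, and AKR1C2 did not pass in HCC38 (0.12).

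NADPH supply also had more falls than rises, with 8 falls, 1 rise and 5 genes that did not pass of 14 (median −0.20), or 6 and 3 with upper-quartile factors. TALDO1, an enzyme of the pentose phosphate pathway, fell by 0.68 and ME3, the mitochondrial paralog of ME1, fell by 2.21, whereas MTHFD2, a mitochondrial folate enzyme, rose by 0.66.

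Of 24 glutathione genes 9 rose, 8 fell and 7 did not pass (median −0.02), or 9 up and 2 down with upper-quartile factors. CHAC1, which degrades glutathione, was at 55 and 61.3 CPM in KD cells, against 13.3 and 14.1 CPM in LNA NS cells of MDA-MB-468, and rose by 1.94 ± 0.06 on average (edgeR adjusted p = 4.12e-12). GSTP1, a glutathione transferase, was at 17.6 and 14.5 CPM in KD cells, against 93.4 and 89.0 CPM in LNA NS cells of that line, and its mean of −1.69 ± 0.06 was a fall (adjusted p = 1.04e-11). Both genes changed in the same direction in each line. CHAC1 is also known as a target of the integrated stress response.

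Of 18 regulators 7 rose, 5 fell and 6 did not pass (median 0.02), or 9 and 4 with upper-quartile factors. Besides MAFF, MAFG and KEAP1, NFE2L1, a relative of NRF2 that controls proteasome genes, rose by 0.47 on average. Of 15 thioredoxin genes 3 rose and 5 fell (median −0.08), or 6 and 4 with upper-quartile factors. The sestrins SESN2 and SESN3, which are known p53 or FOXO targets, rose by 0.89 and 1.55, while the peroxiredoxin PRDX2 and the mitochondrial reductase TXNRD2 fell by 0.43 and 0.41.

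Of 14 heme and iron genes 5 rose and 7 fell (median −0.08), or 7 and 6 with upper-quartile factors. FECH, which inserts iron into heme, fell by 1.19, and the biliverdin reductases BLVRA and BLVRB, which act after HMOX1, fell by 0.93 and 0.75. BLVRB fell in MDA-MB-468 (−1.20) and SUM149PT (−0.91), while −0.14 in HCC38 did not pass. The lines differed for BLVRB by the edgeR F test (adjusted p = 4.46e-04). FTL, the ferritin light chain, fell by 1.00, but it has many processed pseudogenes that can share its reads. Of 14 other oxidant enzymes 2 rose and 5 fell (median −0.03), or 3 and 4 with upper-quartile factors. MSRA, MSRB1 and MSRB2, methionine sulfoxide reductases, fell by 2.57, 0.53 and 0.37 on average. MSRA had only 19 counts in KD and 153 in LNA NS cells of MDA-MB-468, and its mean was −1.86 in the weakest of the other fits. MSRB2 was at −0.0007 in HCC38, which did not pass, and the lines differed for it by the edgeR F test (adjusted p = 0.0339). Catalase (CAT) fell by 0.47 on average, though its value of 0.13 in HCC38 did not pass.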

How the data were processed

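RNA from 12 libraries was sequenced by the authors as strand-specific poly-A RNA-seq. The authors deposited raw whole-number counts per Ensembl gene from HTSeq 0.6.0 on GRCh37, with no normalization. The paper's methods name STAR as aligner, whereas the submitters' processing notes list TopHat2 2.0.13. The annotation release, the strand setting and the overlap mode of the counting are not given in the sources used here. Reads that map to several places, or to shared exons, can therefore be missing from a gene. HTSeq closes each table with 5 lines for reads given to no gene, and these lines, 40.8% to 53.7% of counts, were left out.

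The counts were fitted in edgeR 4.0.16 (limma 3.58.1, R 4.3.3) with TMM factors and filterByExpr (minimum count 10, minimum total 15), as 6 group means with 6 residual degrees of freedom and a common dispersion of 0.0109. Contrasts were KD minus LNA NS per line, their mean, their differences (F test), and the LNA NS groups of the lines against each other. Intervals are at 95%. On simulated counts of 20759 genes, 2-fold changes were recovered for 92.5%, 98.5% and 95.5% of changed genes in MDA-MB-468, SUM149PT and HCC38 and 98.5% in the mean contrast, and 1.5-fold changes for 59.7%, 61.2%, 41.8% and 89.6%, so smaller changes can be missed. The simulation left 20559 genes unchanged, drew the changed genes from those with higher counts and gave all genes 1 dispersion. In the data 34% to 54.8% of genes were called after knock-down, so these rates need not hold there. No library was a repeat of another, since replicates had a chi-square per degree of freedom of 17.6 to 31.4.

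Positions and motifs came from the GENCODE v44 annotation lifted to GRCh37, which matched 55665 of 63677 genes; the others held 0.636% of counts. Python 3.11.15 made tables and plots. Named genes were the 9 genes, the lncRNA, up to 4 genes per list with the smallest adjusted p in the mean contrast, KEAP1, BACH1 and SLC7A11, and the 3 genes most like NFE2L2 and the most raised and most lowered of the 9. MAFK, BTRC, RBX1, CUL3 and BACH2, from the regulator list, were named after their values were seen. A gene that the rule names in the NADPH supply list is not reported here. The members and lists were chosen with earlier results of these data known. Lists were regulators, glutathione, thioredoxin, NADPH supply, detoxification, heme and iron, other oxidant enzymes, and cell type markers. Luminal, mesenchymal, and endothelial or erythroid markers summed to 137 to 237, 65.3 to 2692 and 0.128 to 3.92 CPM in KD cells, and to 113 to 226, 52.5 to 2243 and 0.0823 to 4.33 CPM in LNA NS cells. DESeq2 1.42.0, other size factors, filters, thresholds, a replicate block, removal of a trend with gene span, and leaving out each library were alternatives.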

Additional observations from a re-analysis of the deposited data

Results flagged for a closer look

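The change after knock-down differed between the 3 lines for 7 of the 9 genes, by edgeR's F test of the 2 differences, adjusted over all genes. The adjusted p was 0.00115 for TXNRD1, 0.0013 for GCLM, 0.00808 for HMOX1, 0.0107 for NFE2L2, 0.0152 for ME1, 0.0644 for GCLC and 0.0855 for OSGIN1. The sizes behind them, in MDA-MB-468, SUM149PT and HCC38, were −0.08, 0.39 and −0.36 for TXNRD1, 0.62, 0.45 and −0.20 for GCLM, −0.34, −0.05 and 0.30 for HMOX1, 0.29, 0.48 and −0.29 for NFE2L2, and −0.33, 0.05 and −0.72 for ME1. NFE2L2, GCLM and TXNRD1 thus had their highest or next highest value in SUM149PT and their lowest in HCC38, and HMOX1 had its highest in HCC38. The first 5 differences kept their call without each of the 12 libraries in turn and in all 9 other fits tried, and those of GCLC and OSGIN1 did not.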

How the results depend on the processing

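Depth was lowest for SRXN1, with 226 counts in KD and 132 in LNA NS cells of SUM149PT. The fits without a library assume that its lone partner varies like the other groups. The list genes named by the rule kept their direction and call in the mean contrast in every fit tried.

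Requiring more than 2-fold left 0 of the 9 genes in each line and on average, 3 in MDA-MB-468 against SUM149PT, 3 in SUM149PT against HCC38, and 13 list genes; no such limit applies to the F test. In HCC38, 3 genes were called with no filter on low counts and 3 with the trend with gene span removed, which gave 8 on average (6 up, 2 down). Over all genes those fits called 6775 of 39116 and 7242 of 21325 in HCC38, and the fit with the span trend removed called 11806 of 21325 on average. Calls over all genes also dropped in whichever line lost a library. Leaving out each library gave 2 to 6 genes in MDA-MB-468, 4 to 5 in SUM149PT, 2 to 6 in HCC38, 4 to 6 on average, 5 to 6 differing between lines, 8 to 9, 6 to 7 and 6 to 7 in the LNA NS comparisons, and 82 to 91 list genes.

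The following log2 values changed sign, and the cause was not tested. With the span trend removed they were 0.0900 for NFE2L2 in HCC38, −0.0663 for NQO1 in SUM149PT, 0.26 for GCLC and 0.30 for TXNRD1 in MDA-MB-468, 0.25 for TXNRD1 on average, 0.34 for ME1 in MDA-MB-468 and 0.14 on average, 0.26 for NFE2L2 in SUM149PT over HCC38 and 0.0745 for ME1 in MDA-MB-468 over HCC38. Upper-quartile factors raised the median of all genes by 0.14, 0.06, 0.12 and 0.11 in MDA-MB-468, SUM149PT, HCC38 and the mean, and gave 0.0362 for NQO1 in HCC38 and 0.00415 on average, 0.0120 for HMOX1 in SUM149PT and 0.0784 on average, 0.0799 for GCLC and 0.0573 for TXNRD1 in MDA-MB-468, and 0.0924 for TXNRD1 on average. Minus that shift, these were −0.09, −0.10, −0.05, −0.03, −0.06, −0.08 and −0.01. For NFE2L2 and HMOX1 in SUM149PT over HCC38 they gave 0.0146 and 0.0191, RLE factors 0.0162 and 0.0204, and DESeq2 0.0162 and 0.0199. NQO1 in SUM149PT was −0.0137 with RLE factors and −0.0136 with DESeq2. Total counts gave 0.0042 for HMOX1 and 0.0184 for TXNRD1 on average, and a minimum of 10 counts in every library 0.0027 and 0.0167.

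Without single libraries, values that changed sign ranged from −0.0527 to 0.0990 for GCLC in HCC38, −0.11 to 0.00758 for HMOX1, −0.0371 to 0.0508 for NQO1 and −0.13 to 0.21 for ME1 in SUM149PT, −0.19 to 0.00674 for NQO1 in HCC38, −0.0606 to 0.0137 for TXNRD1 on average, −0.0726 to 0.0894 for NFE2L2 and −0.0606 to 0.0661 for HMOX1 in SUM149PT over HCC38, and −0.12 to 0.15 for ME1 in MDA-MB-468 over HCC38. None of these values passes the test with all libraries.

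The replicate numbers did not pair the samples: the deviations of same-numbered KD and LNA NS libraries correlated at −0.02 for MDA-MB-468, 0.16 for SUM149PT and −0.25 for HCC38. A replicate block left 6, 5, 6 and 5 genes called in the lines and on average, 5 differing between the lines (7 without the block), 9, 7 and 7 in the LNA NS comparisons and 84 list genes. Over all genes tested, 5693 differed between the lines with the block and 6916 without it. With the HCC38 numbers crossed, a pairing chosen after seeing the data, 6 genes were called in HCC38, 7 on average and 7 differed. Over all 21325 genes tested that fit called 7907 in HCC38 and 12012 on average, and 7928 differed.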

Other observations

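Among 14832 genes with a mean of at least 1 CPM, those most like NFE2L2 by Pearson r of log2 CPM over the 12 libraries were TIGD2 (0.960), SUPV3L1 (0.943) and MMS22L (0.941). For OSGIN1 they were ZNF547 (0.982), MDGA1 (0.969) and TEKT4P2 (0.967), and for ME1 they were HSD17B4 (0.967), NDC80 (0.946) and HERC4 (0.946). The libraries fall into 3 lines and share the same 2 treatments, so these values describe likeness over those groups and carry no p-value. None of the other 8 genes of the set was among the 3 most like NFE2L2.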
